A study of Mus musculus with 17 samples.

Results

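The response of the colon to pregnenolone 16α-carbonitrile (PCN) was examined in mice that lack the pregnane X receptor (PXR, encoded by Nr1i2). The members were chosen by sample title alone, giving 9 of the 17 colon arrays of the study, of which 4 were labelled Pxr-/- PCN and 5 were labelled Pxr-/- CONT. PCN animals received 100 mg/kg of PCN by intraperitoneal injection each day for 4 days, and CONT animals received the corn oil vehicle alone. All were fed males on a C57Bl6/J background, killed 6 h after the last injection, and total colon RNA was read on 1-colour Agilent arrays. The Pxr-/- animals carry a null allele of Nr1i2 and came from a colony bred in house, whereas the 8 WT mice of the other arrays (4 WT CONT and 4 WT PCN) were bought at 6 weeks of age, so genotype and colony cannot be told apart. The labels do not give the age of the Pxr-/- animals, and the arrays hold whole colon, so fewer cells of a type and less RNA per cell cannot be told apart.

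PXR is a nuclear receptor of liver and intestine that binds many foreign compounds and some bile acids. Once bound by a ligand such as PCN in rodents, it pairs with RXR and switches on genes of drug metabolism and transport, among them members of the Cyp3a, Cyp2b, Cyp2c, Ces2 and Abcb1 families. The comparison in animals that lack the receptor asks what PCN changes without it. In the gut wall, neutrophils are drawn from the blood by CXC chemokines, slow down on venules that carry P-selectin, and release the S100a8/S100a9 complex (calprotectin). Acute-phase genes such as the Serpina3 family and Lcn2 are switched on in many tissues by IL-6 and IL-1.

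Between 62.7% and 69.3% of the spots were well above background on the 9 arrays, and no spot was saturated. The deposited log2 table, with 36695 probes and 23579 gene or transcript names, was used throughout, and all signals below are on its log2 scale. Arrays under different labels were near-identical in 2 cases. Taken over all probes, the log2 differences had an SD of 0.165 between Pxr-/- PCN replicate 2 and WT PCN replicate 4, and 0.233 between Pxr-/- CONT replicate 2 and WT PCN replicate 3, while the other 134 pairs of arrays lay between 0.264 and 0.600. The number of separate animals behind these 4 arrays is not settled, and results are therefore also given without Pxr-/- PCN 2 and Pxr-/- CONT 2. Pxr-/- PCN replicate 4 had the lowest mean of the distal colon Hox genes (6.62, against 8.35 to 11.36 on the other 8 arrays), with Hoxb13 at 7.75.

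The signal of the Nr1i2 probe was 11.45, 10.97, 10.54, 11.05 and 11.17 in Pxr-/- CONT replicates 1 to 5, and 11.20, 11.10, 12.09 and 11.49 in Pxr-/- PCN replicates 1 to 4. The groups overlapped, and the log2 fold change of PCN was 0.45 (SE 0.24, FDR 0.733, two-sided exact permutation p = 0.127, where 9 arrays allow no p below 0.0159). The probe was well above background on every Pxr-/- array, and WT CONT arrays lay between 11.83 and 12.45. The labels do not say which part of the gene the null allele lacks, so this probe is no test of the genotype.

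PCN changed 19 genes in Pxr-/- colon, of which 17 were up-regulated and 2 were down-regulated (limma, FDR of at most 0.05 and fold change over 1.5). These are 0.0806% of the genes tested, 0.0721% up-regulated and 0.00848% down-regulated. The up-regulated genes were Cxcl5, S100a8, S100a9, Stfa2l1, Retnlg, Cstdc4, Selp, Lrg1, Ccl2, Il33, Serpina3n, Serpina3i, ENSMUST00000163110, Ifitm1, Timp1, Krtap11-1 and Gm15998, and the down-regulated genes were Wscd2 and Gnai1. The PCN and CONT arrays did not overlap for any of the 19, which is a description only, since these genes were called for their difference on the same arrays (1.86% of all genes had all PCN arrays higher without overlap, and 1.89% lower). With slide as a fixed block none of the 19 was called (Serpina3n at FDR 0.752, with a log2 fold change of 1.65). Of 36695 probes, 1391 had an unadjusted p under 0.05 with this block, against 2805 in the main fit (limma). Only slides that held both groups inform PCN minus CONT with this block, and it leaves fewer residual degrees of freedom than the main fit. With slide as a random block 17 genes were called, all among the 19. PCN minus CONT kept its sign on the 3 slides that held both groups, which groups without overlap make certain. In the 9 fits that left out 1 array, 8 genes were called in all 9 (Serpina3n, Cstdc4, Gm15998, Ccl2, Cxcl5, S100a8, Ifitm1 and Stfa2l1) and Selp in 8. Il33 and Lrg1 were called in 5 of these fits, S100a9 and Krtap11-1 in 4, Retnlg in 3, Serpina3i and Wscd2 in 2, Timp1 and ENSMUST00000163110 in 1, and Gnai1 in 0. With all 17 arrays in the fit, 2 genes were called (Gm15998 and Selp), and without Pxr-/- PCN 2 and Pxr-/- CONT 2, 3 genes were called (Serpina3n, Cstdc4 and Gm15998).

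**Figure D1:**
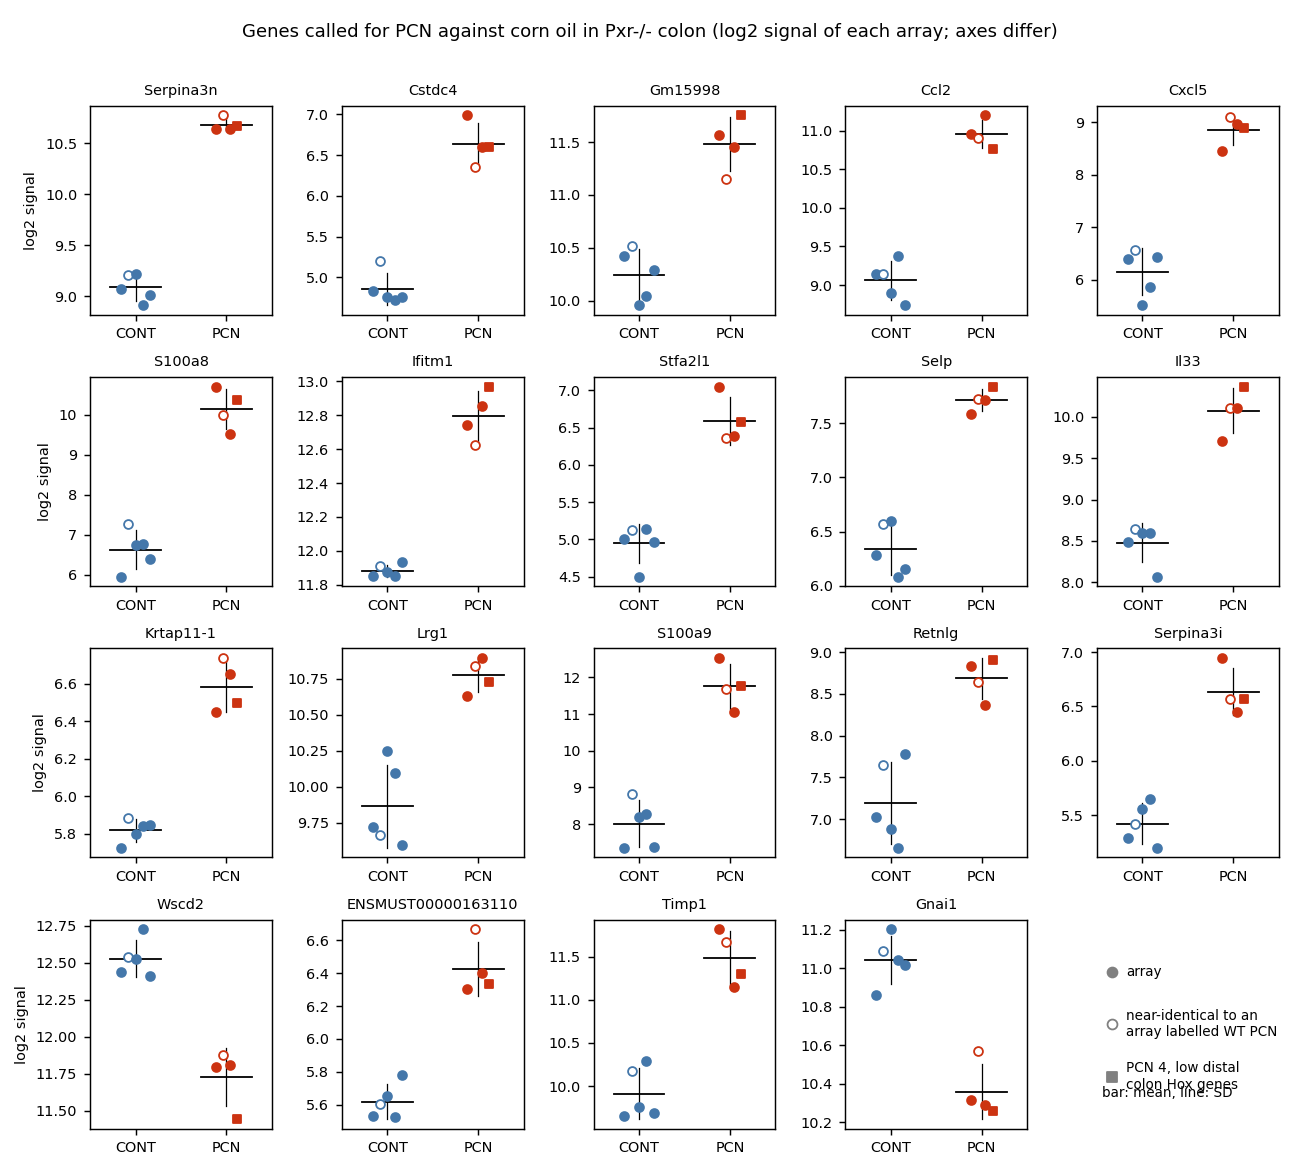
Log2 signal of the 19 genes called for PCN against corn oil in Pxr-/- colon, with 5 CONT arrays (blue) and 4 PCN arrays (red) in each panel, the mean as a bar and the SD as a line. Open points are the replicates that are near-identical to arrays labelled WT PCN, the square is PCN replicate 4, and in every panel the 2 groups stay apart.

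The largest changes were in genes of neutrophils and of the chemokines that draw them. The signal of S100a9, a subunit of calprotectin, was 7.35, 8.83, 8.20, 8.28 and 7.39 in CONT 1 to 5 and 12.53, 11.69, 11.05 and 11.76 in PCN 1 to 4. That of S100a8, the partner subunit, was 5.95, 7.26, 6.73, 6.76 and 6.40 in CONT and 10.70, 10.00, 9.52 and 10.37 in PCN. For both genes CONT 2 was the highest CONT array and PCN 3 the lowest PCN array, and the gap between the groups was wider than the spread within either. The log2 fold change was 3.76 (SE 0.38, FDR 0.0124) for S100a9 and 3.55 (SE 0.29, FDR 0.0058) for S100a8, or 13.5-fold and 11.7-fold.

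S100a8 and S100a9 lie next to each other on chromosome 3 (GRCm38.p6, S100a8 from 90669071 to 90670034, S100a9 from 90692630 to 90695721). The 250 bases before the RefSeq start of each, on the strand of the gene, are shown because these were the genes with the largest changes. Capitals mark the letters TTGCNNAA (a C/EBP motif). They were also searched on both strands for TTCNNNGAA (STAT) and GGG and CC spaced by any 5 bases (NF-κB).
S100a8, chr3:90668821-90669070, plus strand: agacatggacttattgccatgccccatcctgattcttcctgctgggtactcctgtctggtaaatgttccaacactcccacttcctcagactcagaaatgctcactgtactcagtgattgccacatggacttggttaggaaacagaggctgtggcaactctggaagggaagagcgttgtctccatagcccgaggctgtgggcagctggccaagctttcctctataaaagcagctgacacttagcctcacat
S100a9, chr3:90695722-90695971, minus strand: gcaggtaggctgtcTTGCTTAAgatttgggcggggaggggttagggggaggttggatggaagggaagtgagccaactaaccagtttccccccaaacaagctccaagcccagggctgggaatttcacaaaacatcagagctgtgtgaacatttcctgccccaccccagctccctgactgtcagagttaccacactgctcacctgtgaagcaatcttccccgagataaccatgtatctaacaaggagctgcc
The C/EBP letters stood once before S100a9, from base 236 to base 229 before the start, and none of the 3 motifs was found before S100a8. Among 32851 such windows of RefSeq, 9.56% held the C/EBP letters, 7.02% the STAT letters and 45.8% the NF-κB letters. Of the 15 called genes with a window, 3, 2 and 7 held them. These matches describe the sequence and say nothing about binding.

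Cxcl5, an epithelial chemokine for neutrophils, was at 6.40, 6.57, 5.51, 5.85 and 6.43 in CONT and at 8.45, 9.10, 8.97 and 8.88 in PCN. Every PCN array exceeded every CONT array, and the log2 fold change was 2.73 (SE 0.22, FDR 0.0058). Retnlg, a resistin-like gene of myeloid cells, ranged from 6.66 to 7.78 in CONT and from 8.36 to 8.90 in PCN (log2 fold change 1.54, SE 0.16, FDR 0.0182). Stfa2l1 and Cstdc4 belong to the stefin A cluster of cysteine protease inhibitors on chromosome 16. Their probes were not well above background on any CONT array and were well above it on all 4 PCN arrays, so the change is a lower bound of at least 2.64-fold for Stfa2l1 (FDR 0.00765) and at least 2.87-fold for Cstdc4 (FDR 0.00289). The stefin A genes are near-identical copies, and their probes may share transcripts.

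Of the 24 genes of the list of CXC chemokines and neutrophil genes in the table, 5 were called, all up-regulated. The log2 fold change was above 0 in 22 of the 24, with a median of 0.88 against 0.01 over all genes. An unadjusted p under 0.05 with a higher signal was found in 17 of 24 (3.52% of all genes), and groups without overlap, PCN higher, also in 17 of 24 (1.86% of all genes). These counts include the 5 called genes. This list and those below were chosen with earlier results of these data known, so their counts are a description and no test. Without the 2 near-identical arrays 18 of 24 genes were higher at unadjusted p under 0.05 (2.96% of all genes), and 20 of 24 when PCN 4 was left out too (4.91%). Not passing the test were the lectin receptors Clec4e (log2 fold change 2.35, FDR 0.0871) and Clec4d (2.13, FDR 0.0821), the decoy receptor Il1r2 (0.84, FDR 0.0911), the chemokine Cxcl1 (1.15, FDR 0.148) and its receptor Cxcr2 (0.89, FDR 0.235). Cxcr2 was well above background on 1 CONT array and on all 4 PCN arrays. Markers of neutrophils did not all follow. Csf3r, the receptor for G-CSF, had a log2 fold change of -0.02 (FDR 0.978), Ly6g had overlapping groups (0.86, SE 0.80, FDR 0.881), and Camp, a granule peptide, was between 6.13 and 6.39 in PCN and between 6.66 and 7.04 in CONT (-0.56, FDR 0.118).

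Selp encodes P-selectin, on which leukocytes roll in venules, and Lrg1 is a glycoprotein of inflamed endothelium and of neutrophils. The signal of Selp was 6.28, 6.57, 6.60, 6.09 and 6.15 in CONT and 7.58, 7.72, 7.71 and 7.84 in PCN. PCN raised Selp by 1.38 on the log2 scale (SE 0.13, FDR 0.00933). A second probe of Selp was also called (1.03) and a further one was not (0.77, FDR 0.0544). Lrg1 ranged from 9.59 to 10.25 in CONT and from 10.63 to 10.90 in PCN (0.87, SE 0.09, FDR 0.0124). The 250 bases before the start of both genes hold the NF-κB letters once each, in capitals below, 15 to 6 bases before Selp and 34 to 25 bases before Lrg1.
Selp, chr1:164115014-164115263, plus strand: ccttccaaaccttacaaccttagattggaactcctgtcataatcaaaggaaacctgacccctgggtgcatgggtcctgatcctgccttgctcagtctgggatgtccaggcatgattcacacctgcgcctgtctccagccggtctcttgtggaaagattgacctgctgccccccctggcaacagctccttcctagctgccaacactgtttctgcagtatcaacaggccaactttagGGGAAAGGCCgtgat
Lrg1, chr17:56121947-56122196, minus strand: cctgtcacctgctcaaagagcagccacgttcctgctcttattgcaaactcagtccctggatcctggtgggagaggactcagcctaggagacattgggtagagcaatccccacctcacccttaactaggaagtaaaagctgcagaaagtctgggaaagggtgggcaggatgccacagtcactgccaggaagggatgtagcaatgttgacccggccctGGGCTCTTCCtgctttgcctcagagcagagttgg
The other 12 of the 14 venule adhesion genes in the table were not called. Those with the smallest p among them were Ackr1, the chemokine scavenger of venules (0.56, FDR 0.0689), Icam1 (0.43, FDR 0.256) and Vcam1 (0.42, FDR 0.281), and for all 3 the PCN arrays lay above the CONT arrays. The median over the 14 genes was 0.20, with 4 values below 0. Groups without overlap, PCN higher, were found in 5 of 14 (1.86% of all genes), the called genes included. General endothelial genes had a median of 0.05 over 11 genes, none of them called.

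Ccl2, which draws monocytes, was at 9.14, 9.14, 8.89, 9.38 and 8.74 in CONT and at 10.95, 10.90, 11.20 and 10.77 in PCN, a log2 fold change of 1.88 (SE 0.14, FDR 0.00289). Il33, an alarmin kept in the nuclei of epithelial and stromal cells, was at 8.49, 8.64, 8.59, 8.60 and 8.07 in CONT and at 9.71, 10.11, 10.11 and 10.37 in PCN (1.59, SE 0.16, FDR 0.0124). CONT 5 was the lowest array for Il33 and PCN 4 the highest. A second probe of Il33 did not pass the test (0.43, FDR 0.877). These were the only genes called among the 28 cytokines and inflammatory mediators in the table, whose median was 0.01 (0.20 without PCN 4). Below the threshold in the same direction were Il6 (1.26, FDR 0.067), well above background on 1 CONT array and on all 4 PCN arrays, Ccl7 (1.37, FDR 0.0773), Socs3, a feedback inhibitor of STAT3 (1.23, FDR 0.0821), and Il1b (0.81, FDR 0.0826). Ptgs2, which makes prostaglandins, was at -0.76 (FDR 0.395) and the EGF-receptor ligand Hbegf at -0.87 (FDR 0.441), neither passing the test.

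Serpina3n, a secreted acute-phase inhibitor of serine proteases, had the smallest p of all genes. It was at 9.07, 9.21, 9.22, 8.91 and 9.02 in CONT and at 10.64, 10.78, 10.64 and 10.68 in PCN (log2 fold change 1.60, SE 0.09, FDR 0.000993, 3.02-fold). The SD was 0.13 in CONT and 0.06 in PCN, against a difference of the means from 9.09 to 10.68. PCN minus CONT was 1.86, 1.43 and 1.66 on the 3 shared slides. Serpina3i (1.21, FDR 0.0219) and the transcript ENSMUST00000163110 of the same cluster on chromosome 12 (0.80, FDR 0.0414) were also called. Their probes were well above background on 1 and 3 of the CONT arrays and on all 4 PCN arrays, and a second Serpina3i probe was not called (0.80, FDR 0.0773). Serpina3g (0.80, FDR 0.0659) and Serpina3m (1.20, FDR 0.0821) did not pass the test. Genes of this family are recent copies of each other, and reads on one probe may come from several. Of the 26 antimicrobial and acute-phase genes in the table, 2 were called. Lcn2, which binds bacterial siderophores, had a log2 fold change of 1.06 (FDR 0.135) with groups apart, and Saa3 one of 2.72 with overlapping groups (SE 0.74, FDR 0.385). The epithelial genes Itln1 (-2.38, SE 0.79, FDR 0.503) and Ang4 (-1.13, SE 0.47, FDR 0.621) had negative values with overlapping groups.

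Ifitm1, an interferon-inducible membrane protein that is also high in leukocytes, was at 11.85, 11.91, 11.87, 11.85 and 11.93 in CONT and at 12.74, 12.62, 12.85 and 12.97 in PCN. The CONT arrays were tightly grouped (SD 0.04), and PCN raised Ifitm1 by 0.92 (SE 0.08, FDR 0.00728). All 5 members of the Ifitm family in the table had a log2 fold change above 0, with Ifitm6 at 0.79 (FDR 0.0773), Ifitm7 at 0.42 (FDR 0.424) and a median of 0.42. The interferon-stimulated genes as a list had a median of -0.10 over 24 genes (0.10 without the 2 near-identical arrays, where 18 of 24 values were above 0 against 9 of 24), with none called, and Mx1 at -1.12 (SE 0.39, FDR 0.536).

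Gm15998 was the gene with the third smallest p. RefSeq annotates it as a long non-coding RNA on chromosome 3 (GRCm38.p6, 89316746 to 89320240), within the span of Efna3 (89313899 to 89322939). Its probe, shown because the gene has no protein product and is known by this sequence on the array, lies at chr3:89122732-89122791 of mm9 on the plus strand.
Gm15998 probe: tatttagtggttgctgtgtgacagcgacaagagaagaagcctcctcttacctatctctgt
Its signal was 10.42, 10.52, 9.96, 10.04 and 10.29 in CONT and 11.57, 11.15, 11.46 and 11.75 in PCN (log2 fold change 1.28, SE 0.09, FDR 0.00289). Efna3, named for its position, was at 0.05 (FDR 0.966). After the 19 called genes, the gene with the smallest p was Mirt2, a long non-coding RNA known from inflamed heart and macrophages. It was not well above background on any CONT array and was so on all 4 PCN arrays, at least 1.56-fold higher, and it did not pass the test (FDR 0.0544).

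Timp1, an inhibitor of matrix metalloproteinases, was at 9.65, 10.17, 9.76, 10.30 and 9.69 in CONT and at 11.82, 11.67, 11.15 and 11.30 in PCN (1.57, SE 0.19, FDR 0.0436). It was the only gene called of 19 fibroblast and matrix genes, whose median was 0.03. Krtap11-1, annotated as a keratin-associated protein of hair, rose by 0.76 (SE 0.08, FDR 0.0124), from between 5.72 and 5.88 to between 6.45 and 6.74. Of the down-regulated genes, Wscd2 was at 12.44, 12.54, 12.53, 12.72 and 12.41 in CONT and at 11.79, 11.88, 11.81 and 11.44 in PCN (-0.82, SE 0.09, FDR 0.0228), but 2 further probes of the gene were not called (-0.18 and -0.36). Gnai1, an inhibitory G-protein subunit, was between 10.86 and 11.20 in CONT and between 10.26 and 10.57 in PCN (-0.70, SE 0.09, FDR 0.0463).

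**Figure D2:**
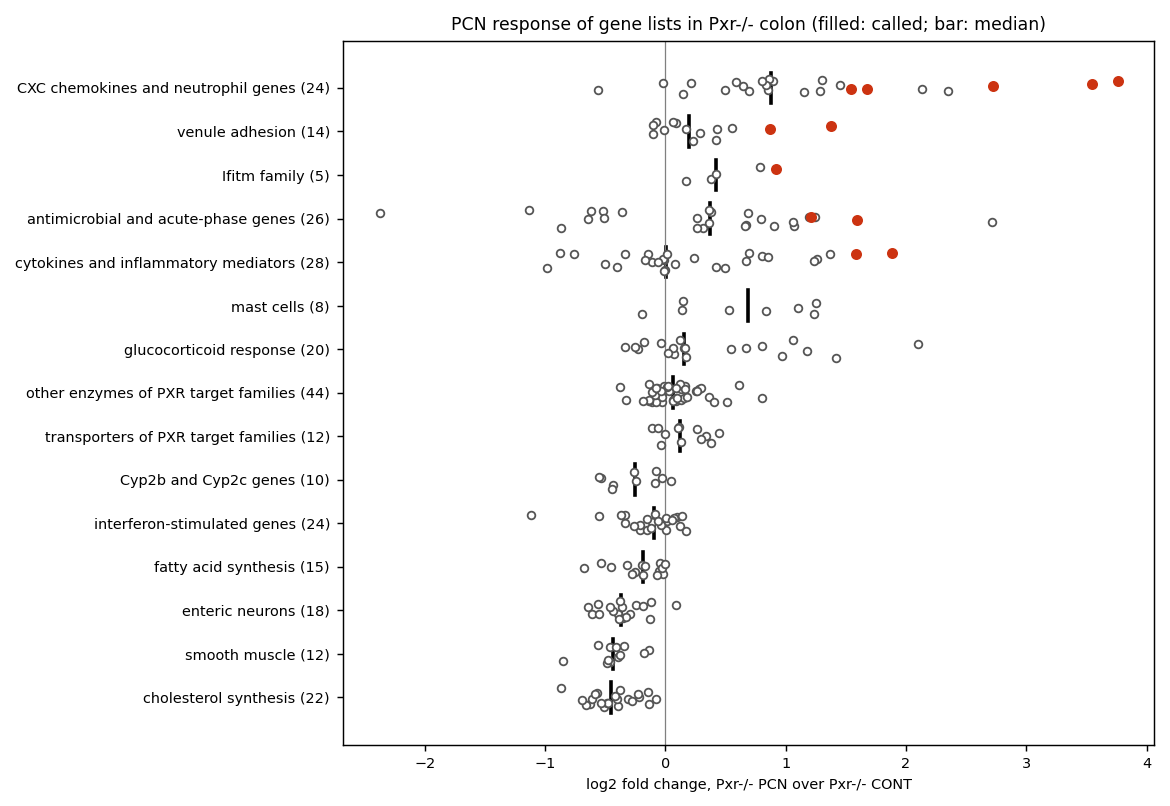
Log2 fold change of PCN over CONT in Pxr-/- colon for the genes of 15 lists, 1 point per gene, with the number of genes in the table in brackets, called genes in red and the list median as a bar. Red points are confined to the 5 uppermost lists, all to the right of 0, and the cholesterol synthesis, smooth muscle and fatty acid synthesis genes are all to the left of it.

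Genes of cholesterol synthesis were lower in PCN, each by a modest amount. None of the 22 passed the test, but the log2 fold change was below 0 in 22 of 22, with a median of -0.45. An unadjusted p under 0.05 with a lower signal was found in 18 of 22 (4.54% of all genes), and groups without overlap, PCN lower, in 13 of 22 (1.89% of all genes). The smallest p was that of Cyp51, the lanosterol demethylase, between 12.16 and 12.54 in CONT and between 11.64 and 11.85 in PCN (-0.61, SE 0.09, FDR 0.0821), followed by the mevalonate pathway enzymes Pmvk (-0.42, FDR 0.117) and Idi1 (-0.63, FDR 0.134). Fdft1, which makes squalene, was at -0.48 (FDR 0.196), and Hmgcs1 at -0.57 (FDR 0.276). The regulator Srebf2 was at -0.15 (FDR 0.749). Without the 2 near-identical arrays 15 of 22 were lower at unadjusted p under 0.05 (3.65% of all genes), and 11 of 22 when PCN 4 was left out too (7.08%). The mean of the list was 12.30, 12.42, 12.55, 12.64 and 12.54 in CONT 1 to 5 and 12.18, 12.02, 12.03 and 12.00 in PCN 1 to 4. Of the 15 fatty acid synthesis genes, 15 had a value below 0 and none was called (median -0.19, Fasn -0.25, FDR 0.504).

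**Figure D3:**
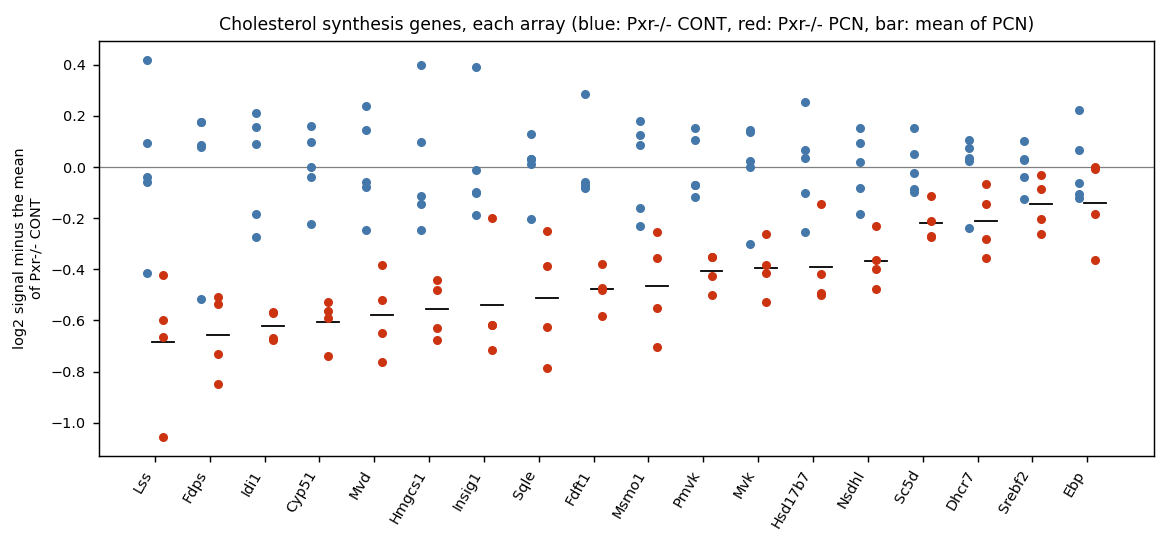
Signal of 18 of the 22 cholesterol synthesis genes on each array, as log2 signal minus the mean of the Pxr-/- CONT arrays (blue CONT, red PCN, bar for the PCN mean). Every PCN mean lies below 0, with log2 fold changes from -0.69 (Lss) to -0.14 (Ebp), and the arrays of both groups overlap for Fdps, Mvk, Hsd17b7, Dhcr7, Srebf2 and Ebp.

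No gene of the classical target families of PXR that was in the table passed the test in Pxr-/- colon. Cyp3a11 was between 6.14 and 6.62 in CONT and between 6.25 and 6.57 in PCN (0.06, SE 0.12, FDR 0.954), and Cyp3a13 was at 0.25 (FDR 0.866). Cyp2c55, a Cyp2c enzyme of the colon, ranged from 11.75 to 14.11 in CONT and from 10.85 to 14.39 in PCN (-0.25, SE 0.74, FDR 0.97). The table held 2 of 9 listed Cyp3a genes and 10 of 17 listed Cyp2b and Cyp2c genes. It also held 44 of 48 other enzymes (median 0.06) and 12 of 13 transporters (median 0.12). No gene was called among them, and listed genes outside the table, such as Cyp2b10 and Slco1a4, were not tested. At unadjusted p under 0.05, 1 of 12 transporters was higher (3.52% of all genes). This was 3 of 12 without the 2 near-identical arrays (2.96%) and 0 of 12 without PCN 4 (4.97%). The median of the Cyp2b and Cyp2c genes was -0.26, and 0.15 without PCN 4. The smallest p among the enzymes were those of Ces2a, a carboxylesterase (0.61, SE 0.19, FDR 0.472), and Gsta2 (0.51, FDR 0.566), and among the transporters that of Abca1 (0.44, FDR 0.579). Gdf15, a stress-induced hormone, had overlapping groups (0.12, SE 0.62, FDR 0.984). The AHR targets had a median of 0.02 (-0.13 without PCN 4), with Cyp1b1 well above background on no CONT array and on 3 PCN arrays (FDR 0.524). In the list of glucocorticoid-responsive genes none of 20 was called, with the metallothioneins Mt1 (0.97, FDR 0.115) and Mt2 (1.42, FDR 0.118) and the co-chaperone Fkbp5 (0.67, FDR 0.397) each higher on all PCN than on all CONT arrays and a list median of 0.16 (0.27 without PCN 4). In this list 4 of 20 had groups without overlap, PCN higher (1.86% of all genes), and 5 of 20 values were below 0.

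The response of both genotypes was then set side by side, with 13 arrays in the fit, leaving out the 4 near-identical ones. The WT response in this fit sets PCN replicates 1 and 2 against CONT replicates 2 to 5, so it rests on few arrays. On the Pxr-/- side the fit holds PCN replicates 1, 3 and 4 and CONT replicates 1, 3, 4 and 5. The genes called in Pxr-/- are those of the fit to 9 arrays. In WT, 19 genes were called, all up-regulated (0.0806% of genes), and 8 of them were among the 19 called in Pxr-/- (8 of 19 in either list), namely Cstdc4, Cxcl5, Ifitm1, Il33, S100a8, Selp, Serpina3n and Stfa2l1. Selp was called in WT on its second probe (0.72, FDR 0.0189), while the probe shown for it was not called in WT (1.19, FDR 0.0537). The values in WT had the same sign as in Pxr-/- for 18 of the 19 genes called in Pxr-/-. The same share over all genes was not counted, so this is a description only. S100a8 had a log2 fold change of 3.75 in WT (SE 0.48, FDR 0.0252), Cxcl5 of 2.91 (SE 0.31, FDR 0.00703), Serpina3n of 1.45 (SE 0.20, FDR 0.0422) and Ifitm1 of 0.97 (SE 0.12, FDR 0.0184). The difference between the genotypes was -0.04 (SE 0.65), -0.22 (SE 0.41), 0.13 (SE 0.27) and 0.00 (SE 0.16) for these genes. With all 17 arrays it was 1.20, 0.94, 0.70 and 0.27. None of these differences passed the test, which does not show that the responses are equal. Gm15998 was the exception in sign. It was at -0.42 in WT (SE 0.19, FDR 1), with a difference of 1.84 between the genotypes that did not pass the test (FDR 0.159), and it was at 11.42, 11.47, 10.87 and 11.17 in WT CONT. With all 17 arrays, where WT PCN 3 had S100a8 at 6.90 and the other WT PCN arrays at 10.07 to 12.14, no gene was called in WT.

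Of the 11 genes called in WT and not in Pxr-/-, 5 belonged to the enzyme and transporter families that PXR regulates. In the 13-array fit Ces2a was up-regulated in WT by 2.30 (FDR 0.00703), Akr1b7, an aldo-keto reductase, by 1.96 (FDR 0.00479), the phospholipid transporter Abcb4 by 1.47 (FDR 0.00479), and the drug efflux transporters Abcb1a by 1.38 (FDR 0.00479) and Abcb1b by 1.49 (FDR 0.00704). In Pxr-/- Ces2a was at 0.61, Akr1b7 at -0.33, Abcb4 at 0.30, Abcb1a at 0.34 and Abcb1b at 0.26, none of them called. The other 6 were Calca, Ifitm6, Il1b, Il6, Ltb4r1 and Sh2d7. The differences of Pxr-/- minus WT were -1.72 for Ces2a, -2.12 for Akr1b7, -1.02 for Abcb4, -0.91 for Abcb1a and -1.08 for Abcb1b, and none passed the test (FDR 0.111 for Akr1b7). These 5 genes were taken from those called in WT only, so their differences are a description. A single gene passed the test of the difference, Sh2d7, an SH2 domain protein (-1.94, SE 0.18, FDR 0.0153, 0.00424% of genes). With all 17 arrays none passed (0%), with 2038 of 36695 probes at unadjusted p under 0.05 and the smallest FDR at 0.241. The median of the 22 cholesterol synthesis genes was -0.45 in Pxr-/- and 0.00 in WT. Of these, 8 had a lower response in Pxr-/- than in WT at unadjusted p under 0.05 (1.95% of all genes), and 7 with all 17 arrays (3.19%), with none passing the test. The median difference was -0.48 with 13 arrays. It was -0.59 for enteric neuron genes (18 of 18 below 0, 5 at this threshold) and -0.52 for smooth muscle genes (12 of 12 below 0, 2 at this threshold). Other lists went the other way, such as MHC class II (9 of 9 above 0, median 0.52).

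**Figure D4:**
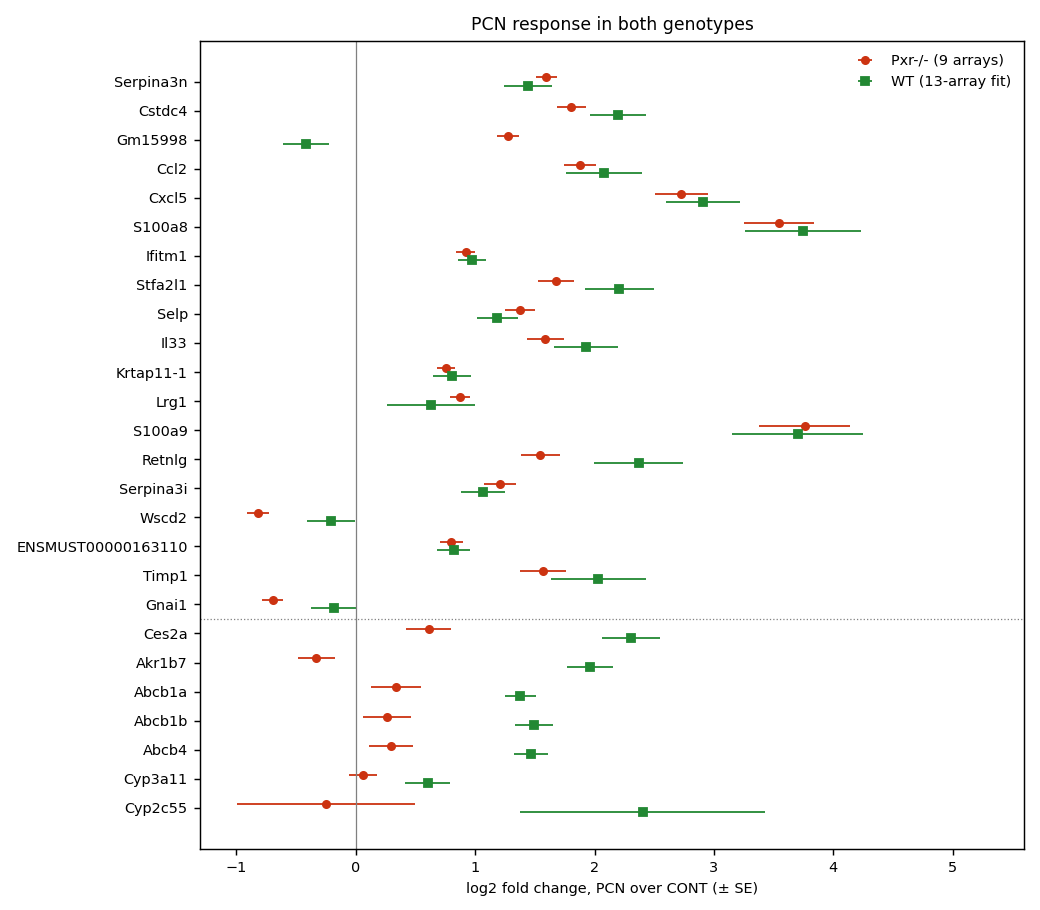
Log2 fold change of PCN over CONT (± SE) in Pxr-/- colon (red, 9 arrays) and in WT colon (green, fit to 13 arrays without the 4 near-identical ones), with the 19 genes called in Pxr-/- above the dotted line and 7 PXR target genes below it. The WT values set PCN replicates 1 and 2 against CONT replicates 2 to 5. Above the line the 2 genotypes share the sign of the value except for Gm15998, and below it WT lies to the right of Pxr-/-. Ces2a, Akr1b7, Abcb4, Abcb1a and Abcb1b were placed there because they were called in WT and not in Pxr-/-. Their position is a description only.

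The mean of the colonocyte list lay between 13.57 and 14.14 and that of the goblet cell list between 16.04 and 16.57 on the 9 arrays, as the tissue label would have it, and PCN 4 was the lowest array for both. Aqp8, a water channel of colonocytes, was at 15.86 to 16.28 in CONT and at 13.13 to 16.40 in PCN, and Tff3 of goblet cells at 16.67 to 17.14 and 17.02 to 17.51. Neither list held a called gene (medians -0.06 and -0.18). Genes of the muscle layer and of its nerves were lower in PCN without passing the test. The median was -0.43 over 12 smooth muscle genes, with Synm (-0.85, FDR 0.136) and Cnn1 (-0.46, FDR 0.392) at the smallest p, and -0.37 over 18 enteric neuron genes, with Ret at -0.61 (FDR 0.217). At unadjusted p under 0.05, 8 of 12 and 7 of 18 were lower (4.54% of all genes). For the enteric neuron genes this count was 13 of 18 without PCN 4 (6.78% of all genes) and 4 of 18 without the 2 near-identical arrays (3.65%). The mean of the smooth muscle list was 13.36 to 13.87 in CONT and 13.02 to 13.45 in PCN. The mast cell proteases Mcpt4 (1.25, FDR 0.138), Mcpt2 (5.04 to 5.58 in CONT and 5.93 to 7.25 in PCN, FDR 0.256) and Mcpt1 (1.23, FDR 0.276) were higher on all PCN than on all CONT arrays, while the mast cell markers Kit (-0.19, FDR 0.95) and Cpa3 (0.53, FDR 0.62) overlapped. Groups without overlap, PCN higher, were found in 3 of 8 mast cell genes (1.86% of all genes). Macrophage genes had a median of 0.08 over 10 genes, T cell genes of 0.22 over 12 and B and plasma cell genes of 0.16 over 12, with none called. Without PCN 4 the medians were -0.04 for T cell genes and 0.73 for B and plasma cell genes, 6 of 12 of the latter being higher at unadjusted p under 0.05 (4.97% of all genes). Of the enteroendocrine genes, Calca, which encodes calcitonin and CGRP, was at 1.03 in Pxr-/- (FDR 0.0821) and at 2.72 in WT, where it was called. No gene was called among 18 clock genes (median 0.09), 20 cell cycle genes (0.18), 25 nuclear receptors (0.03) or 25 PPARα targets (0.11). Without PCN 4 these medians were 0.07, 0.30, -0.04 and -0.02. Of the 20 cell cycle genes, 9 were then higher at unadjusted p under 0.05 (4.97% of all genes), against 2 with it (3.52%). In both settings 0 of 20 had groups without overlap. With the 2 near-identical arrays left out as well as PCN 4, 4 of 20 were higher at this threshold (4.91%). The pancreas list stood at 14.55 on CONT 2 and at 8.23 to 10.15 on the other 8 arrays. The part of these tissue shares in the changes above was not tested.

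**Figure D5:**
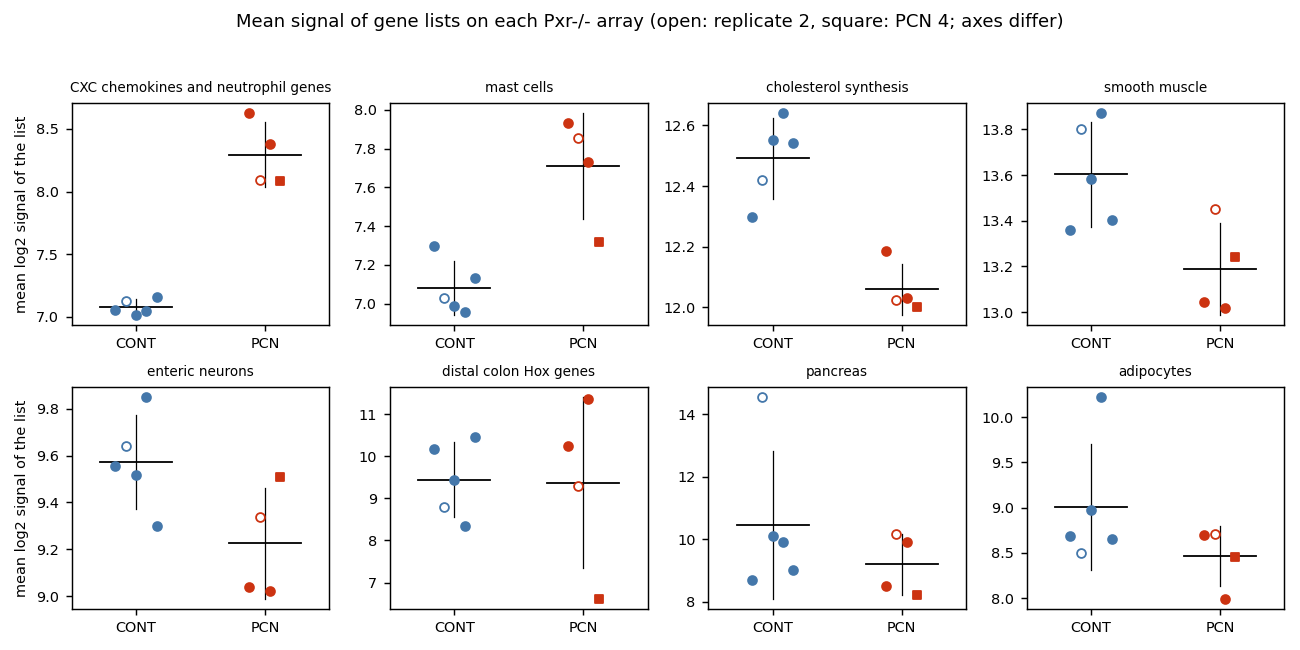
Mean log2 signal of 8 gene lists on each Pxr-/- array (blue CONT, red PCN, bar for the mean, line for the SD, open points for replicate 2, square for PCN 4). The neutrophil, mast cell and cholesterol lists show no overlap of the groups (the mast cell list by a narrow gap), and the Hox, pancreas and adipocyte lists each hold 1 array far from the rest.

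The arrays in doubt changed how many genes passed more than the size of their changes. Without Pxr-/- PCN 2 and Pxr-/- CONT 2, the log2 fold change was 3.72 for S100a8 (FDR 0.0797), 3.99 for S100a9 (FDR 0.126), 2.67 for Cxcl5 (FDR 0.0797), 1.98 for Ccl2 (FDR 0.0611) and 1.60 for Serpina3n (FDR 0.0302). With PCN 4 left out as well, 17 genes were called, of which 4 were among the 19. Leaving out PCN 4 alone gave 22 genes.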

How the data were processed

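Mouse colon RNA was hybridised to 17 Agilent SurePrint G3 Mouse GE v2 8x60K arrays of 1 colour. Per the labels and the study's methods, the authors read spot intensities with Agilent Feature Extraction 10.10.1.1. The deposited log2 values are, by the authors' account, filtered median intensities on the log2 scale, corrected for the wash bath and normalised between arrays with CrossNorm. Each column had a median of 8.439 and followed its own scanner file (slope 0.985 to 1.018). Correction before the fit can alter small differences, and the residual difference between baths was at most 0.16.

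The 36695 probes were named by RefSeq accession (24626) or synonym (288), and 11781 kept the name in the file. The 4 Pxr-/- PCN and 5 Pxr-/- CONT arrays were fitted with limma 3.58.1 in R 4.3.3, with wash bath as a covariate (6 residual degrees of freedom) and Benjamini-Hochberg adjustment over all probes. The arrays of WT mice were left out of this fit because 2 of them are near-identical to Pxr-/- arrays, and they entered the tests of the difference between genotypes. Genes were called on any probe past both thresholds, 0.05 for the FDR and 1.5 for the fold change. A gene is shown by its called probe, or otherwise by its probe with the highest mean signal. Where a probe was below background on all arrays of a group, the fold change is a lower bound against the dimmest signal well above background, taken on normalised log2 values. Single values were tested with an exact permutation test over the 126 splits of 9 arrays. The labels describe separate mice, which the near-identical arrays put in doubt for 4 of the 17, and the number of arrays limits the precision.

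The samples, gene lists and tests were chosen with earlier results of these data known. The genes named are Nr1i2, Cyp3a11, Cyp2c55, Gdf15, all called genes, the next by p up to 20 and, per list, all called members or otherwise the 2 with the smallest p. Other genes were named after their values were seen. Of the cholesterol synthesis genes, 4 are counted but not reported singly here. Promoter sequences are from RefSeq (GRCm38.p6). The alternatives were other normalisations, background filters, blocks, array weights, array sets and thresholds. The fit was tested on simulated data.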

Additional observations from a re-analysis of the deposited data

Results flagged for a closer look

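Single arrays stood apart within their group in 7 of the 134 groups of arrays examined (48 for genes and 86 for list means), and chance alone flags about 1 in 20. Among the called genes, Cstdc4 was at 5.20 on Pxr-/- CONT 2 (next array 4.83), Stfa2l1 at 4.50 on CONT 3 (next 4.96) and Il33 at 8.07 on CONT 5 (next 8.49). For each of these genes all PCN arrays lay above the CONT array named. This is a description only, since the genes were called for their difference on the same arrays.

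Among the list means, the glucocorticoid-responsive genes were at 11.87 on PCN 3 (next 11.52) and the cholesterol synthesis genes at 12.18 on PCN 1 (next 12.03). The adipocyte genes were at 10.22 on CONT 4 (next 8.98) and the pancreas genes at 14.55 on CONT 2 (next 10.11). The part of these arrays' tissue content in the PCN response was not tested.

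Gm15998 was higher with PCN in Pxr-/- and lower in WT, a difference of 1.63 on the log2 scale with all 17 arrays that did not pass the test (limma, FDR 0.241).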

How the results depend on the processing

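Against 19 genes called, the number was 2 with all 17 arrays, 3 without both near-identical arrays, 36 without the bath term, 56 with array weights, 52 at an FDR of at most 0.10 and 32 with 1 probe per gene. Leaving out 1 array gave 9 genes (without Pxr-/- CONT 1) to 22 genes (without Pxr-/- PCN 4), with 11 without CONT 4. No gene was called by limma with slide as a fixed block (1391 of 36695 probes at unadjusted p under 0.05, against 2805 in the main fit). Slide as a random block gave 17 genes, all among the 19. The value of all 19 genes kept its direction in each alternative that could be computed (0 of 452 reversed). The alternatives reuse the arrays on which the genes were called, so this too is a description only. The cause of the changes in count was not tested.

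With a replicate block, pairing the arrays by number, 0 genes were called (limma, 2949 of 36695 probes at unadjusted p under 0.05). The fit with this block had fewer residual degrees of freedom than the main fit. Same-numbered arrays correlated at 0.143, 0.28, -0.138 and 0.529 for replicates 1 to 4. The highest correlation of each PCN array with a CONT array of another number was 0.202, 0.049, 0.489 and 0.192. The same number gave the higher value for replicates 2 and 4 only. Pairing by number is therefore not settled, and it was not used in the main fit. The test of Pxr-/- minus WT called 0 genes with the block.

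For the difference between genotypes, 0 genes were called with all 17 arrays, 1 without the 4 near-identical arrays (Sh2d7), and 0 to 1 when 1 array was left out, the 1 being Clca4c-ps without WT PCN 4 (-2.39, FDR 0.00732).

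Of the 5 uncalled genes followed singly through the alternatives (Nr1i2, Cyp3a11, Cyp2c55, Gdf15 and Mirt2), the sign turned for 3. Members of the lists turned as well, as with the T cell genes, of which 10 of 12 were above 0 and 3 of 12 without PCN 4. Without PCN 4 the list median was -0.11 for fatty acid synthesis, -0.08 for goblet cells and 0.05 for the transporters. Cyp3a11 was at -0.0053 with the replicate block and from -0.0053 to 0.16 when arrays were left out. Cyp2c55 was at 0.21 with slide as a fixed block and from -1.20 to 0.43 when arrays were left out. Gdf15 was at -0.012 without the 4 near-identical arrays, at -0.062 without the 2 in Pxr-/-, at -0.062 with slide as a fixed block, and from -0.29 to 0.85 when arrays were left out.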
